A study of Brassica napus with 3 samples.

Results

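LEAFY (LFY), a transcription factor found only in plants, turns the outgrowths made by the shoot tip into flowers. It switches on floral homeotic genes such as AGAMOUS and the floral identity gene APETALA1 in Arabidopsis, and it binds DNA as a dimer. Rapeseed (Brassica napus) carries the chromosomes of 2 ancestors side by side, the A chromosomes from Brassica rapa and the C chromosomes from Brassica oleracea. A03 and C03 are homoeologues, chromosomes that descend from 1 ancestral chromosome and still share gene order over much of their length, and C03 carries BnaC3.LFY itself.

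The peaks described here are the 7878 binding peaks of BnaC3.LFY that lie on A03 or C03, chosen by the sequence name alone and not by any measured value. They are 12.5% of the 62949 peaks in the list, with 2791 on A03 and 5087 on C03. The assay, DAP-seq (DNA affinity purification sequencing), is one in which a factor made outside the plant captures fragments of naked genomic DNA. There were 2 replicate libraries captured with BnaC3.LFY and an input library, all from Brassica napus genomic DNA of a tissue labelled shoot apices and, in the protocol, inflorescence. No cultivar, genotype, age or treatment is given for any of them, and because the captured DNA is free of chromatin, a peak shows that the DNA can be bound and not that it is bound in the plant. The authors deposited 1 peak list in which the libraries are not told apart, so no value below has an error between replicates. Intervals are 95% intervals for counting error only, treat peaks as independent, and do not stand in for replicate libraries. Counts in windows of 100 kb varied more than independent peaks would, with a variance of 2.39 times the mean on A03 and 1.75 times on C03. The intervals may therefore be too narrow. Read totals are not in the list, and sequencing depth is therefore unknown. Positions are those of the Westar v0 assembly, counted from 1, and the span of a chromosome runs from base 1 to the end of its last peak. Which genes the peaks lie near was not analysed here.

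C03 carried more peaks per length than A03, and the difference was wider for the 10% of peaks with the highest fold. A03 held 60.8 peaks per Mb (58.5 to 63.1) over a span of 45.9 Mb, and C03 held 69.8 per Mb (67.9 to 71.8) over 72.8 Mb. C03 was thus 1.15 times as dense (1.10 to 1.20). It had 1.82 times the peaks of A03 on 1.59 times the span. Among all 19 chromosomes C03 ranked 3 in density, behind A09 and C07, and A03 ranked 16. Neither place is sharp: the intervals of C03 and C07 (68.2 to 72.6 per Mb) overlapped, as did those of A03 and A05 (58.2 to 62.9 per Mb). In the other pairs of equal number the C to A ratio of density was 0.983 for A01 and C01, 0.989 for A02 and C02, 0.947 for A04 and C04 and 1.11 for A05 and C05. The ratio for A03 and C03 was the highest of these 5, with an interval that overlapped that of A05 and C05 (1.06 to 1.17).

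Strong peaks, the 10% of the whole list with the highest fold enrichment over background, were fewer on A03. The weakest of them had a fold of 16.1. A03 held 230, or 8.24% of its peaks (95% Wilson interval 7.28 to 9.32%), and C03 held 565, or 11.1% (10.3 to 12.0%), against 9.99% of the peaks outside this pair of chromosomes. Per length this was 5.01 per Mb (4.38 to 5.70) on A03 and 7.76 per Mb (7.13 to 8.42) on C03, a ratio of 1.55 (1.33 to 1.81). In the other pairs of equal number this ratio was 1.24 for A01 and C01, 1.28 for A02 and C02, 1.24 for A04 and C04 and 1.61 for A05 and C05, above that of all peaks in each. Both chromosomes lay inside the range of the others of their subgenome, which was 4.56 to 6.38 per Mb on the 9 other A chromosomes and 6.99 to 8.01 per Mb on the 8 other C chromosomes. A -log10 q of at least 10 was found in 49.4% of A03 peaks (47.6 to 51.3%) and 51.4% of C03 peaks (50 to 52.8%), intervals that overlap, against 50.6% of the whole list.

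The ratio between the chromosomes grew from the lowest to the highest class of fold, the last being open, at 30 or more. Below a fold of 4, A03 held 7.99 and C03 8.03 peaks per Mb, a ratio of 1.01 (0.881 to 1.15), so the weakest peaks were not distinguishable in density. From a fold of 4 to 6 the ratio was 1.12 (1.04 to 1.21), from 8 to 10 it was 1.13 (0.965 to 1.32) and from 10 to 15 it was 1.20 (1.04 to 1.38). From 20 to 30, A03 held 96 peaks, or 2.09 per Mb, and C03 239, or 3.28 per Mb, a ratio of 1.57 (1.23 to 2.01). At a fold of 30 or more, A03 held 45 peaks, or 0.980 per Mb, and C03 137, or 1.88 per Mb. The ratio there was 1.92 (1.36 to 2.75). Within this open class the growth did not go on to the very strongest peaks. At a fold of 50 or more the counts were 11 on A03 and 19 on C03, whose span is 1.59 times as long. C03 stood above the range of the other C chromosomes from a fold of 20 to 30 (2.76 to 3.23 per Mb), from 4 to 6 (26.1 against 21.8 to 25.7 per Mb) and from 6 to 8 (12.8 against 11.2 to 12.7 per Mb). Each margin was small, and the intervals of C03 reached into these ranges (2.88 to 3.73, 24.9 to 27.3 and 11.9 to 13.6 per Mb). At a fold of 30 or more C03 lay inside the range (1.49 to 1.90 per Mb). A03 stayed within the range of the other A chromosomes in every class.

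**Figure D1:**
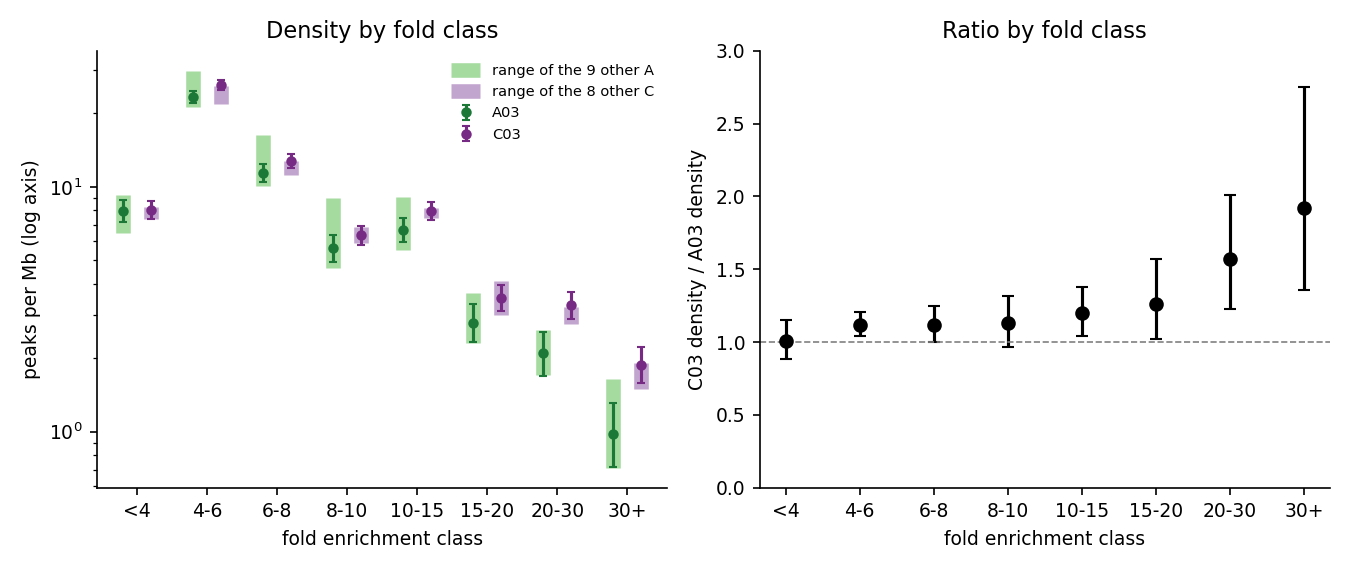
Left, LFY peaks per Mb (log axis) on A03 and C03 in 8 classes of fold enrichment, with 95% Poisson intervals and bars for the range of the 9 other A and 8 other C chromosomes; right, the C03 to A03 ratio of these densities with its exact binomial interval and a dashed line at 1. The ratio goes from 1.01 in the lowest class to 1.92 in the highest.

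Over all peaks the strength distributions differed mainly in the upper tail. The median fold was 5.91 (order-statistic interval 5.80 to 6.04) on A03, with quartiles of 4.59 and 8.85. On C03 it was 6.10 (5.98 to 6.21), with quartiles of 4.72 and 9.65, and the intervals of the medians overlapped. The 90th percentile was 14.7 on A03 and 17 on C03. C03 had the lowest median fold of the 9 C chromosomes, the others lying between 6.11 and 6.27. That place is not sharp, since its interval overlapped those of all the others. A03 had the weakest peak of all 19 chromosomes, with a fold of 1.98.

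The strongest A03 peak lay near the middle of the chromosome, from 24576971 to 24577608, with a fold of 66.4 and a -log10 q of 330.4. The next, from 4276574 to 4277290, had a fold of 64.3, and a peak from 22047680 to 22048357 had 61.3. The outer members of this trio, in order of fold, lay within 2.53 Mb of each other, measured from start to start. Close to the far end of A03, a peak from 45033831 to 45034440 had a fold of 59.7 and another from 45842896 to 45843466, at 99.8% of the span, had 53.7. The peaks from 28921352 to 28921955 and from 26831703 to 26832551 had folds of 56.3 and 56.1. The last 5% of A03, with 63.6 peaks per Mb (53.7 to 74.8), thus held 2 of its 10 strongest. The last of the 10 were a peak from 33401933 to 33402466 with a fold of 52.9, a peak from 37561202 to 37561792 with 51.5 and a peak from 12177061 to 12177791 with 50.9. Of these, the second forms the left border of the longest interval without a peak on A03, described below.

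On C03 the strongest peak, from 36525967 to 36526652, had a fold of 77.6 and a -log10 q of 313. It also lay at the middle, at 50.2% of the span, and a second of the 10 strongest, from 36558172 to 36559108 with a fold of 55.8, began 32.2 kb further on. Both were part of a group between 50.2 and 55.1% of the span that also held a peak from 38315586 to 38316721 (fold 56.1) and one from 40097612 to 40098306 (fold 58.5). A second group lay past the peak-poor stretch, from 75.9 to 77.1% of the span. It comprised peaks from 55264327 to 55265513 (fold 62.5), from 55974814 to 55975352 (fold 55.2) and from 56126880 to 56127591 (fold 58.2). The remaining 3 lay apart from these groups, from 2773441 to 2774188 (fold 63.8), from 67166677 to 67167255 (fold 63.0) and from 21155360 to 21155939 (fold 59.3). On both chromosomes 1 of the 10 strongest lay in the first 20% of the span. A fold of 50 or more was found in 11 of the 2791 peaks of A03 and in 19 of the 5087 of C03. These counts are not per length, and the span of C03 is 1.59 times that of A03.

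Strong peaks also lay nearer to each other on C03. The median distance between neighbouring strong peaks was 128 kb on A03 and 83.6 kb on C03, in the direction that their densities give. Another strong peak lay within 20 kb of 50 of the 230 strong peaks of A03 (21.7%) and of 178 of the 565 of C03 (31.5%). For the other A chromosomes this share ran from 21.1 to 37.9% and for the other C chromosomes from 24.0 to 33.2%, so neither chromosome stood outside its subgenome.

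Along their length the chromosomes had different profiles. In 20 bins of 5% of the span, A03 began low, at 39.2 peaks per Mb (31.5 to 48.2) in the first bin and 48.3 (39.8 to 58.2) in the second. It rose to its highest value, 84.5 (73.0 to 97.3), in the bin from 25 to 30% of the span (11480609 to 13776730). C03 began high, at 81.8 peaks per Mb (72.8 to 91.7), and had its highest value, 90.3 (80.8 to 101), from 20 to 25% (14566332 to 18207913). The lowest bin of A03 was that from 80 to 85% (36737947 to 39034068), with 4 peaks or 1.74 per Mb (0.475 to 4.46). On C03 it was that from 65 to 70% (47340575 to 50982157), with 64 peaks or 17.6 per Mb (13.5 to 22.4). Each chromosome thus had 1 deep trough, and the troughs lay at different relative positions. Away from the trough C03 was the more even of the pair: 18 of its 20 bins lay within 25% of its median bin (73.0 per Mb), against 13 of 20 for A03 (median 67.5 per Mb). C03 was denser in 11 of the 20 bins for all peaks and in 17 of 20 for strong peaks.

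**Figure D2:**
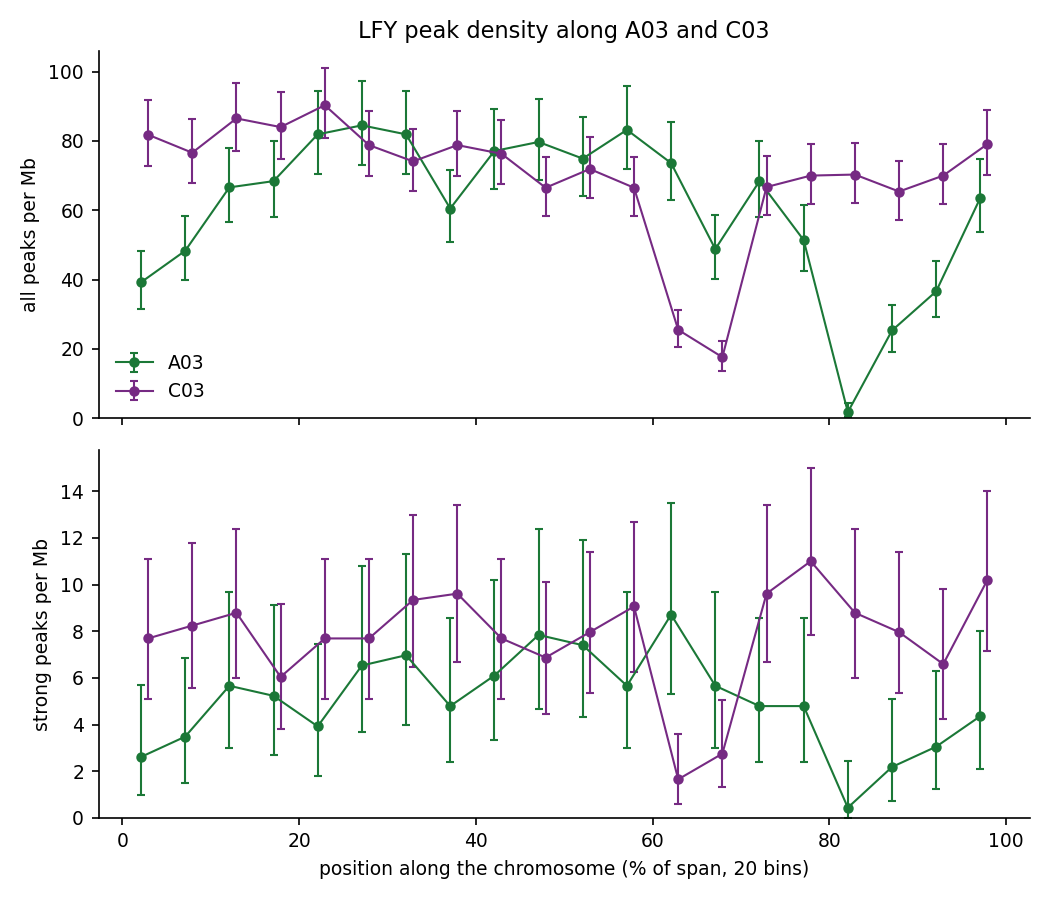
Peaks per Mb (top) and strong peaks per Mb (bottom) in 20 bins of relative position along A03 and C03, with 95% Poisson intervals. A03 starts at 39.2 peaks per Mb and falls to 1.74 between 80 and 85% of the span, while C03 starts at 81.8 and falls to 17.6 between 65 and 70%.

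The ends of A03 were poorer in peaks than its middle, and those of C03 were not. The first and last 10% of the span were taken as ends and the central 20% as middle. On A03 the ends held 46.9 and the middle 78.7 peaks per Mb, a ratio of 0.596 (0.528 to 0.673). On C03 the ends held 76.9 and the middle 70.3 per Mb, a ratio of 1.09 (1.0 to 1.19), whose interval reaches 1. The ratio of A03 was the lowest of all 19 chromosomes, the other A chromosomes lying between 0.820 and 2.0. C06 was next, at 0.682 (0.612 to 0.760), and its interval overlapped that of A03. The density at the ends of C03 was the highest of all 19. Both ends of A03 took part: its first 10% held 43.8 per Mb, 0.556 times the middle (0.473 to 0.651), and its last 10% held 50.1 per Mb, 0.636 times the middle (0.546 to 0.739). Part of the last 10% of A03 falls in the trough, which ends at 93.4% of the span, whereas the first 10% lies far from it. The first 10% of A03 was lower than that of the 9 other A chromosomes (64.4 to 75 per Mb), while C06 (35.2 per Mb) was lower still and C07 had 44.7.

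Strong peaks followed all peaks at the ends. On A03 the ends held 3.38 and the middle 6.75 strong peaks per Mb, a ratio of 0.50 (0.314 to 0.781) from 31 and 62 peaks. On C03 the values were 8.17 and 7.89 per Mb, a ratio of 1.03 (0.794 to 1.35). The A03 ratio was again the lowest of the 19, with an interval that overlapped those of C07 (0.644, 0.467 to 0.884) and C06 (0.709, 0.502 to 0.996). The middle of A03 had the highest density of strong peaks among the middles of the A chromosomes (1.84 to 6.35 per Mb on the other 9). Across the 20 bins of A03, all and strong peaks rose and fell together (Pearson r = 0.827, Spearman rho = 0.748), and without its 2 lowest bins r was 0.684. On C03 r was 0.730 with a rho of 0.164, and without its 2 lowest bins r was -0.174. The r of C03 therefore rested on the trough. Strong peaks are a part of all peaks, and these values describe bins of 1 list.

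Intervals of at least 500 kb without a peak lay close together on each chromosome, and the stretch named here is drawn from the first to the last of them. Of the intervals of at least 250 kb, 4 of 7 on A03 and 3 of 5 on C03 lay in the stretch. A03 had 3 of at least 500 kb and C03 had 2, and together they made up 7.34% of the span of A03 (3.37 Mb) and 3.11% of that of C03 (2.27 Mb). The longest on A03 ran from 37561793 to 39321516 (1.76 Mb). It was bordered on the left by the peak with a fold of 51.5 and on the right by one with a fold of 6.19. The others on A03 ran from 39870878 to 40697048 (0.826 Mb), between peaks of fold 19.4 and 15.3, and from 42093759 to 42879756 (0.786 Mb), between peaks of fold 4.39 and 6.18. On C03 they ran from 45290919 to 46253657 (0.963 Mb) and from 46764468 to 48069322 (1.30 Mb), and the 4 bordering peaks had folds between 4.97 and 6.99, on either side of the C03 median of 6.10. Unresolved bases, which cannot hold a peak, were not located here.

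Shorter intervals were placed differently on the chromosomes. Intervals of at least 100 kb without a peak numbered 27 on A03 and 24 on C03, although C03 is the longer. In the first 30% of the span A03 had 10 of them and C03 had 2. From 30 to 60% A03 had 0 and C03 had 2, and the other 17 of A03 and 20 of C03 lay beyond 60%. Of all windows of 100 kb, 10.9% on A03 and 4.94% on C03 were without a peak. Between peaks, the typical distance differed less: the median from edge to edge was 8588 bp on A03 and 8126 bp on C03, the shortest median among the C chromosomes. Edges lay within 500 bp of each other in 3.84% of neighbouring pairs on A03 and 3.79% on C03.

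**Figure D3:**
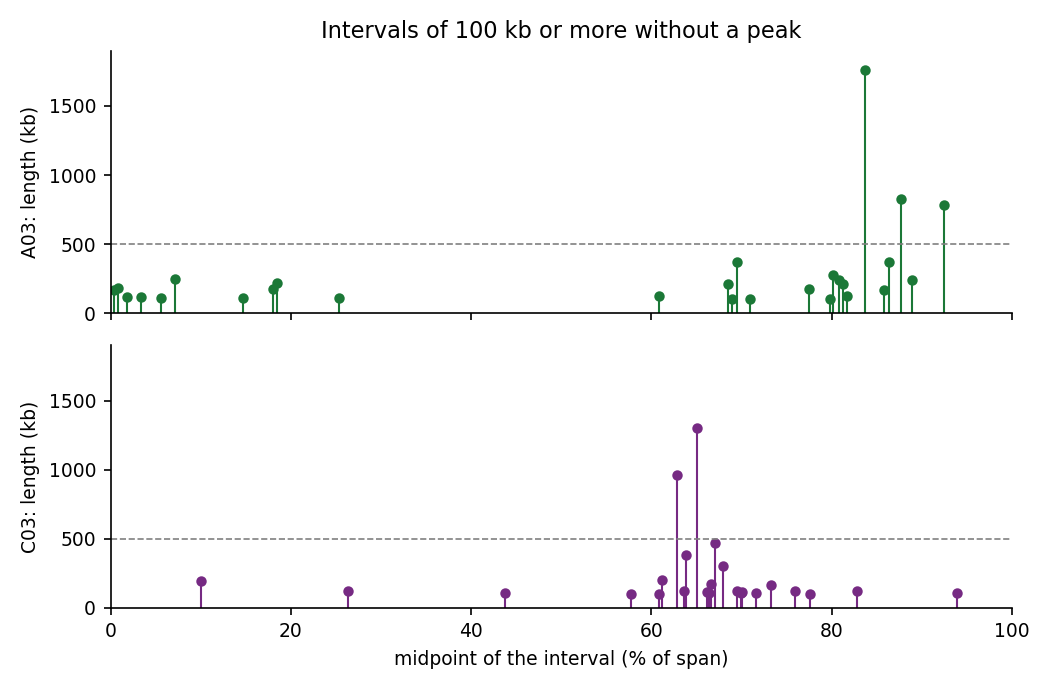
Length in kb of each interval of at least 100 kb without a peak, against the position of its midpoint along A03 (top) and C03 (bottom); the dashed line marks 500 kb. The intervals above the line lie between 81.8 and 93.4% of the span on A03 and between 62.2 and 66.0% on C03.

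The stretch from the first to the last of the long intervals splits each chromosome into a long and a short part. On A03 the stretch covered 5.32 Mb and held 106 peaks, and on C03 it covered 2.78 Mb and held 3. Before it, A03 carried 66.6 peaks per Mb (64.1 to 69.3) over 37.6 Mb and C03 76.9 (74.4 to 79.5) over 45.3 Mb, a ratio of 1.15 (1.10 to 1.22). After it, A03 carried 59.8 (51.4 to 69.2) over 3.04 Mb and C03 64.6 (61.4 to 67.8) over 24.8 Mb, a ratio of 1.08 (0.926 to 1.27). For all peaks the interval of the ratio excluded 1 before the stretch and included it after, where A03 had only 182 peaks. The intervals overlapped, so the ratios before and after were not told apart. The part of C03 after the stretch also begins within its lowest bin, from 65 to 70% of the span (17.6 peaks per Mb). For strong peaks the ratio was 1.43 (1.20 to 1.70) before and 1.82 (1.06 to 3.38) after, the latter resting on 14 strong peaks of A03. C03 had 34.0% of its span after the stretch and A03 6.63%.

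Within C03 the 2 parts differed in the share of strong peaks. After the stretch peaks were sparser than before it, yet 12.9% of them were strong (11.4 to 14.7%), against 10.3% before (9.31 to 11.3%). Strong peaks per Mb were 8.36 (7.26 to 9.58) after and 7.90 (7.11 to 8.77) before, which their intervals do not separate. The part after the stretch begins within the lowest bin of C03, so its densities include the flank of the trough. Whether the larger share goes with fewer weaker peaks or with more strong ones was therefore not settled. The bin with the highest strong share after the trough, from 75 to 80% of the span, had 15.7% (11.7 to 20.7%), and the lowest of all bins of C03, from 60 to 65%, had 6.45% (2.99 to 13.4%). On A03 the shares were 8.31% before the stretch (7.29 to 9.46%) and 7.69% after it (4.64 to 12.5%).

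Between its long intervals A03 held an island that is crowded with broad peaks. From 40697049 to 42093758 it had 102 peaks, or 73.0 per Mb. Of these, 43 lay in neighbouring windows of 100 kb that were the fullest of A03, with 27 peaks from 41.2 to 41.3 Mb and 16 from 41.1 to 41.2 Mb. These windows together had a median width of 571 bp and a median fold of 8.10, and 15 of their 43 peaks were at least 800 bp wide. The remaining 1.20 Mb of the island held 59 peaks, or 49.3 per Mb, with a median width of 375 bp, and 2 of them were at least 800 bp wide. Outside the island the median width of A03 was 352 bp and the median fold 5.86. Of the 43 peaks, 2 were strong (4.65%, 95% Wilson interval 1.28 to 15.5%), too few to tell their share from the 8.24% of A03. The 3 widest peaks of A03 all lay on the island: from 41317048 to 41319277 (2230 bp, fold 8.12), from 41264201 to 41266410 (2210 bp, fold 9.18) and from 41218713 to 41220780 (2068 bp, fold 14.1). Next came the window of A03 from 9.6 to 9.7 Mb, with 15 peaks.

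No window of C03 held more than 18 peaks. Its fullest windows held 18 peaks from 21.2 to 21.3 Mb, 17 from 2.0 to 2.1 Mb and 17 from 7.1 to 7.2 Mb, with median widths of 348, 401 and 291 bp and no peak of 800 bp or more. The widest C03 peaks lay apart from each other and were strong, unlike those of A03. They ran from 71992748 to 71994766 (2019 bp, fold 40.9), from 18433365 to 18435001 (1637 bp, fold 22.2) and from 64593203 to 64594632 (1430 bp, fold 19.3).

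Peaks were slightly narrower on A03. The median width was 354 bp (350.0 to 359) on A03, the smallest of all 19 chromosomes, and 369 bp (366 to 373) on C03, the largest of the 9 C chromosomes. The differences from the next chromosomes were small, since the other A chromosomes began at 355 bp and the other C chromosomes ended at 368 bp. Peaks of at least 800 bp made up 2.29% on A03 and 2.32% on C03. Width rose with fold in the same way on both (Spearman rho = 0.658 across the 2791 peaks of A03 and 0.658 across the 5087 of C03). In the lowest decile of fold of the whole list the median was 284 bp on A03 and 285 bp on C03, and in the sixth decile it was 357 bp on both. In the ninth decile it was 441 bp (434 to 449) on A03 and 455 bp (446 to 468) on C03, and in the highest 504 bp (491 to 522) and 526 bp (515 to 534). Within a decile the widths were therefore nearly equal up to the eighth. In the upper 2 deciles the median was 14 to 22 bp larger on C03 with intervals that still overlapped. The highest decile is wide, from a fold of 16.1 to 81.8. In narrower classes the medians of A03 and C03 were 437 and 446 bp from a fold of 10 to 15 and 472 and 478 bp from 15 to 20. They were 506 and 512 bp from 20 to 30 and 596 and 599 bp at 30 or more, so at like strength they were close there too. The highest decile held 8.24% of A03 and 11.1% of C03 peaks.

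**Figure D4:**
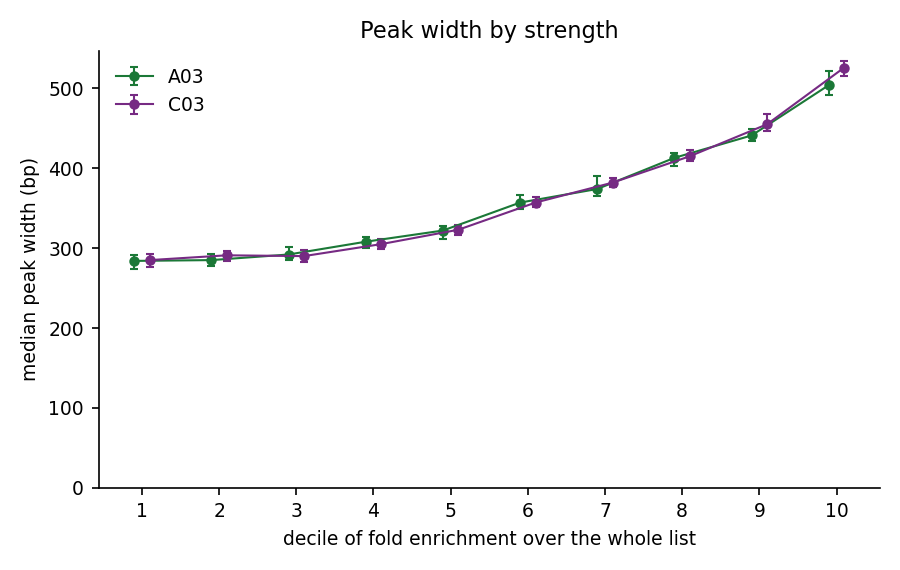
Median peak width in bp on A03 and C03 in each decile of fold enrichment of the whole list, with order-statistic intervals. The medians rise from 284 and 285 bp in the lowest decile to 504 and 526 bp in the highest.

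Some values in the list appear to be averages over several lines of the peak caller, which was read from a fractional score or from more than 6 significant digits. This sign was present in 64.0% of A03 peaks (62.2 to 65.8%) and 66.9% of C03 peaks (65.6 to 68.2%), against 66.6% of the whole list. All 10 strongest peaks of either chromosome carried it, as did 95.2% of all strong peaks on A03 and 94.5% on C03. Among the other peaks the shares were 61.2% on A03 and 63.4% on C03. Among peaks with the sign, C03 was 1.20 times as dense as A03 (1.13 to 1.27), and in strong peaks 1.54 times (1.31 to 1.81). A score that a mean of 2 caller lines cannot give was found in 7 of the 2791 peaks of A03 and 14 of the 5087 of C03. The other A chromosomes had from 2 to 97 such peaks and the other C chromosomes from 6 to 23. On A03, 4 of the 7 lay on the island of broad peaks, and the 2 widest peaks of A03 were among them. Their widths may therefore not be those of single peaks.

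Whether the profiles of the homoeologues agreed depended on how they were laid side by side. Over 20 bins of relative position their densities were nearly unrelated (Pearson r = 0.103, Spearman rho = 0.130). Among the 90 pairs of an A and a C chromosome this r ranked 37, with a median of 0.00669 and a range of -0.690 to 0.848. A02, with 0.737, was the A chromosome most like C03, and A03 came in place 4 of 10. C06, with 0.205, was the C chromosome most like A03, and C03 came in place 2 of 9. For strong peaks r was -0.348 (rho = -0.244), rank 83 of the 90 pairs.

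**Figure D5:**
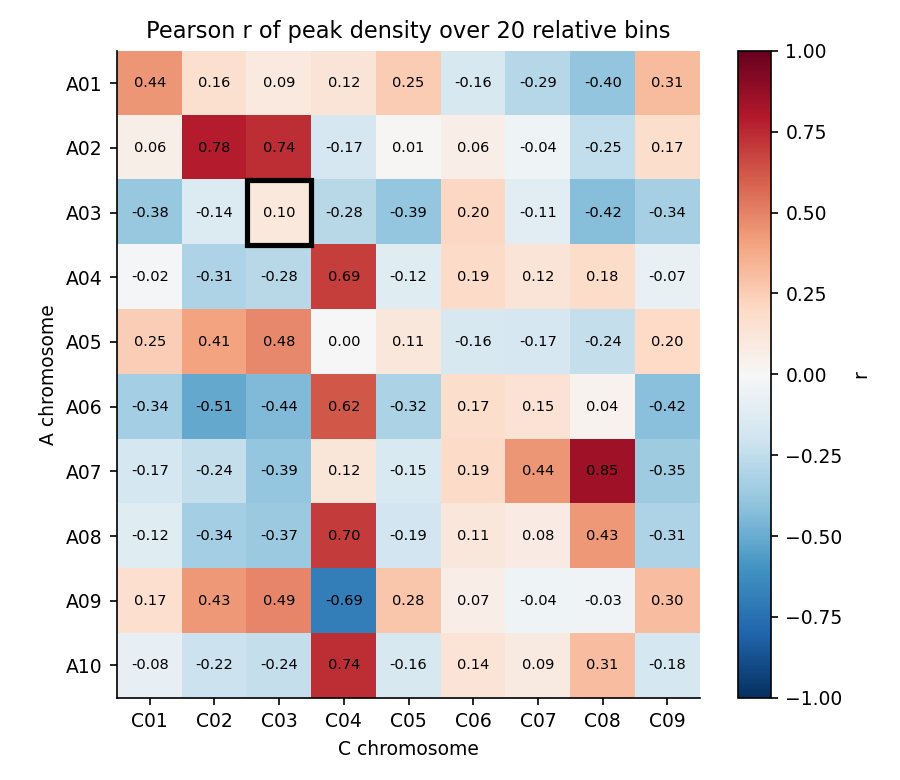
Pearson r between the peak densities of each A chromosome (rows) and each C chromosome (columns) over 20 bins of relative position, coloured from -1 to 1, with A03 and C03 outlined. Their r of 0.103 lies near the middle of the range of -0.690 to 0.848.

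Laid side by side in Mb from the start, the profiles were more alike. In 22 bins of 2 Mb, r was 0.549 (rho = 0.506), rank 3 of the 90 pairs, whose median was -0.0538. These bins end at 44 Mb and leave out the trough of C03 and its last 28.8 Mb, and the ranked pairs span from 12 to 33 bins. In this layout C03 was the C chromosome most like A03 and A03 the A chromosome most like C03. Without the bin that had under 20 peaks on A03, r was 0.468 over 21 bins, again rank 3. Counted from the far end, r was -0.267, rank 70. The likeness was therefore seen from the start of the chromosomes and in Mb, not in relative position over the whole span and not from the far end. All these r describe bins of a single list with the same libraries and background, no gene order was compared, and no test was attached to them.

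In the part before the stretch, divided into 4 equal lengths, the chromosomes differed most at the outset. A03 held 56.4, 76.2, 78.8 and 55.1 peaks per Mb from the start to the stretch. C03 held 81.9, 83.4, 75.6 and 66.9. The intervals for counting error were well apart in the first length (51.7 to 61.5 against 76.7 to 87.3). In the last they were apart by little (50.4 to 60 against 62.3 to 71.9), and wider intervals could overlap there. They overlapped in the lengths between them. A03 was thus poor in peaks both at its start and on approach to its stretch, while C03 declined only towards its stretch.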

How the data were processed

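The deposited table is 1 peak list with 7 columns and no header. The fold enrichment (a ratio), the -log10 p, the -log10 q and the score of each peak are the authors' own values as deposited, and their meaning was read from the order of the columns and from the values. The tools named by the submitters' processing notes are fastp, Bowtie2, SAMtools, MACS2 and HOMER. Their versions and settings, and how replicates were combined, are not stated in the sources at hand. The Westar v0 build was read from the sequence names, and no sequence or annotation of it was used here. Peaks were placed by their midpoint. Densities have Poisson intervals, ratios exact binomial (Clopper-Pearson) intervals, shares Wilson intervals and medians order-statistic intervals, all at 95% and computed with Python 3.11.15, numpy 2.4.6, pandas 2.3.3 and scipy 1.17.1. Alternatives were stricter -log10 q, other spans, bins, ends and definitions of a strong peak. The functions were tested on simulated data. No p-value is given, since there is 1 list and 1 chromosome of each kind. Dixon's test was used only to flag an extreme chromosome among the A or the C chromosomes, as described below. Named on each chromosome were the 10 peaks of highest fold, the 3 widest, every peak-free interval of at least 500 kb, the 3 fullest windows of 100 kb and the lowest and highest of 20 bins. Peaks and measures were chosen with earlier results of these data known.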

Additional observations from a re-analysis of the deposited data

Results flagged for a closer look

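Dixon's test was run on 18 measures in the A and in the C chromosomes, which made 36 groups. About 1 in 20 of these would pass by chance, whichever chromosome was the extreme. Passes were counted only where A03 or C03 was the extreme chromosome, so their number is not to be set against that rate. The test passed in 2 such groups, which share most of their peaks. The first 10% of A03 held 43.8 peaks per Mb, apart from the first 10% of the other A chromosomes (64.4 to 75). Both ends of A03 together held 46.9 per Mb, apart from the ends of the other A chromosomes (59.4 to 70.5).

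The ratio of ends to middle was below 1 on A03, at 0.596, and not on C03, at 1.09, where the interval reaches 1 and no direction is set. The intervals, 0.528 to 0.673 and 1.0 to 1.19, do not overlap, but the difference was not tested over libraries.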

How the results depend on the processing

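The sequencing depth is unknown, and a single list gives no error between libraries. No paired analysis was possible because the list does not tell the replicates apart. For the same reason no replicate was left out.

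In 72 alternatives to 15 results, 46 values stayed within the interval or tolerance of the reported value, and 26 moved. No ratio whose interval excludes 1 crossed it, and the r of the profiles changed sign in 3 alternatives. The ratio of C03 to A03 stayed between 1.10 and 1.20 for all peaks and between 1.33 and 1.78 for strong peaks. The ratio of ends to middle on A03 stayed between 0.596 and 0.665. On C03 it moved to 1.29 with ends of 20% each, where the middle reaches into the trough. The r of the relative profiles (0.103) moved to 0.549 and -0.267 with bins of 2 Mb from the start and from the end. It moved to -0.387 with C03 turned end to end, to -0.348 for strong peaks and to 0.552 in 15 bins before the peak-poor stretch, an alternative chosen after seeing the data. The cause of these moves was not tested.

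The other moves follow from the thresholds themselves. With -log10 q of at least 5, the strong share was 9.73% on A03 and 12.9% on C03, the median width 369 and 382 bp and the median fold 6.52 and 6.75. With at least 10, these were 16.7 and 21.6%, 417 and 428 bp, and 8.97 and 9.46. With strong set as the top 5% of fold the shares were 3.94 and 6.11%, and as the top 20% they were 18.2 and 21.1%. Peak-free intervals of at least 250 kb numbered 7 and 5, and of at least 1000 kb 1 and 1.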
